A study of Mus musculus with 15 samples.

Results

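Hepatocytes take bile acids and drugs from blood with carriers of their sinusoidal (blood-facing) membrane and release them into bile, or back into blood, with ATP-driven pumps. The transporters described here are 9 genes chosen by symbol for these roles, among the 55984 genes counted. The group holds 5 sinusoidal uptake carriers (Slc10a1, Slco1a1, Slco1a4, Slco1b2 and Slco2b1), 3 canalicular pumps of the bile-facing membrane (Abcb11, Abcb4 and Abcc2) and 1 basolateral pump (Abcc3), and all 9 passed the filter on low counts.

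RNA was sequenced from hepatocytes that had been sorted by DNA content, measured as fluorescence of the DNA dye Hoechst, to ask how expression differs with ploidy and with the number of nuclei. All cells came from wild-type adult male C57BL/6JJcl mice, were released by collagenase perfusion and, per the study's methods, were stained in the presence of reserpine, an inhibitor of efflux pumps, so every population shares these treatments. The populations were 2n-whole (diploid, 4 mice), 4n-whole (tetraploid, 4 mice), 4n-bottom (the part of the tetraploid gate with the lower Hoechst peak height, mostly cells with a pair of nuclei, 4 mice) and 4n-top (the part with the higher peak, sorted a single time and so only partly enriched for mononucleated cells, mice 2, 3 and 4). Libraries of the same subject number came from the same mouse, and the comparisons below share the 2n-whole or 4n libraries and are not independent of each other.

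Total counts per library ranged from 22049498 to 42096421 over the 15 libraries. The hepatocyte markers, such as albumin and apolipoprotein genes, summed to between 74678 and 102971 CPM (counts scaled to a common library total, with the TMM method) in each library. Markers of cholangiocytes, endothelial cells, Kupffer cells, stellate cells and leukocytes summed to at most 47.8, 22.4, 7.47, 5.36 and 0.664 CPM, with S100a8 at 0 in all libraries, and their part in the results was not tested. The 4n-whole library of mouse 2 stood apart: it had the fewest counts and the lowest Slc10a1, Slco1a1 and Slco1b2 of all libraries. Differences between 4n-whole and 2n-whole are also given without it for Slc10a1, Slco1a1, Slco1a4, Slco1b2 and Abcc2, and for other genes where leaving it out ended a call. The 2n cells were also pelleted at a higher speed than the 4n cells after sorting, per the study's methods, and this step and ploidy cannot be told apart.

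The uptake carriers of the SLC10 family use the sodium gradient, and those of the organic anion transporting polypeptide (OATP) family, whose mouse genes are named Slco, do not need it. Canalicular pumps of the ABC family set bile flow: Abcb11 exports bile acids, Abcb4 moves phosphatidylcholine into bile and Abcc2 exports conjugated bilirubin and drug conjugates. Abcc3 moves conjugates back into sinusoidal blood. Transcription of several of these genes is known to respond to nuclear receptors, which bind short sequence motifs built from the half-site AGGTCA.

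Slco1a1, Slco1a4 and Slco1b2 lie close together on chromosome 6 (GRCm39): Slco1b2 at chr6:141575179-141633546 on the plus strand, Slco1a4 at chr6:141751165-141802036 and Slco1a1 at chr6:141853007-141892690, both on the minus strand. The stretches just upstream of Slco1a1 and Slco1b2 are shown because these carriers had the largest positive differences of the 9. Slco1b2 was also the gene most like Slco1a1 over the libraries once the mouse effect had been removed. They are RefSeq promoter sequences listed for GRCm38.p6 that matched a single place in GRCm39, cut at the annotated gene start, with AGGTCA or its reverse complement TGACCT in capitals.
Slco1a1, chr6:141892691-141892938, minus strand: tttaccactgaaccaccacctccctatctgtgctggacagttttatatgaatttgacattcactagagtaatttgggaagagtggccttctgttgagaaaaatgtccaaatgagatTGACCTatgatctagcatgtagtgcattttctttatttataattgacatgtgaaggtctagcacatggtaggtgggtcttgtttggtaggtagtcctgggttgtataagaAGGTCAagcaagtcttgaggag
Slco1b2, chr6:141574994-141575178, plus strand: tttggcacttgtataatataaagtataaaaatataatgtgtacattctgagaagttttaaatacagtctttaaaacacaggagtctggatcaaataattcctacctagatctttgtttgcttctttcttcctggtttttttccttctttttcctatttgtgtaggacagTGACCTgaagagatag

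In the 250 bases before the RefSeq start, the motif began 134 and 24 bases upstream in Slco1a1 and 81 bases upstream in Slco1b2. It was also present for Abcb11 (56 bases upstream), Abcc2 (49 bases) and 1 of the starts of Slc10a1 (87 bases). Of the 11 starts listed for 8 members, 5 held the motif on either strand, and of all 32851 mouse promoters of this length 4607 (14.0%) did. No start was listed for Abcc3. A match describes the letters only.

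Per kilobase of exon, Abcb11 was the highest of the 9, at a mean of 148 RPKM over the 15 libraries (lowest library 102, highest 209). RPKM is CPM divided by the merged length, in kilobases, of all annotated exons of a gene. Slc10a1, Abcc2, Slco1b2 and Slco1a1 followed at means of 69.4, 68.5, 54.3 and 51.5 RPKM, and their ranges over libraries overlapped. Abcc3 had a mean of 39.2 RPKM, Abcb4 21.6 and Slco2b1 18.7. Slco1a4 was the lowest at 5.53 RPKM, and its highest library, at 9.90, was below the lowest library of each of the other 8. The merged length can exceed that of any single transcript, so the order between genes depends on it. Abcb4 (13.5 kb) had a mean of 302 CPM in 2n-whole, above Slc10a1 (3.34 kb) at 249 CPM and Abcc3 (5.97 kb) at 226 CPM.

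**Figure D1:**
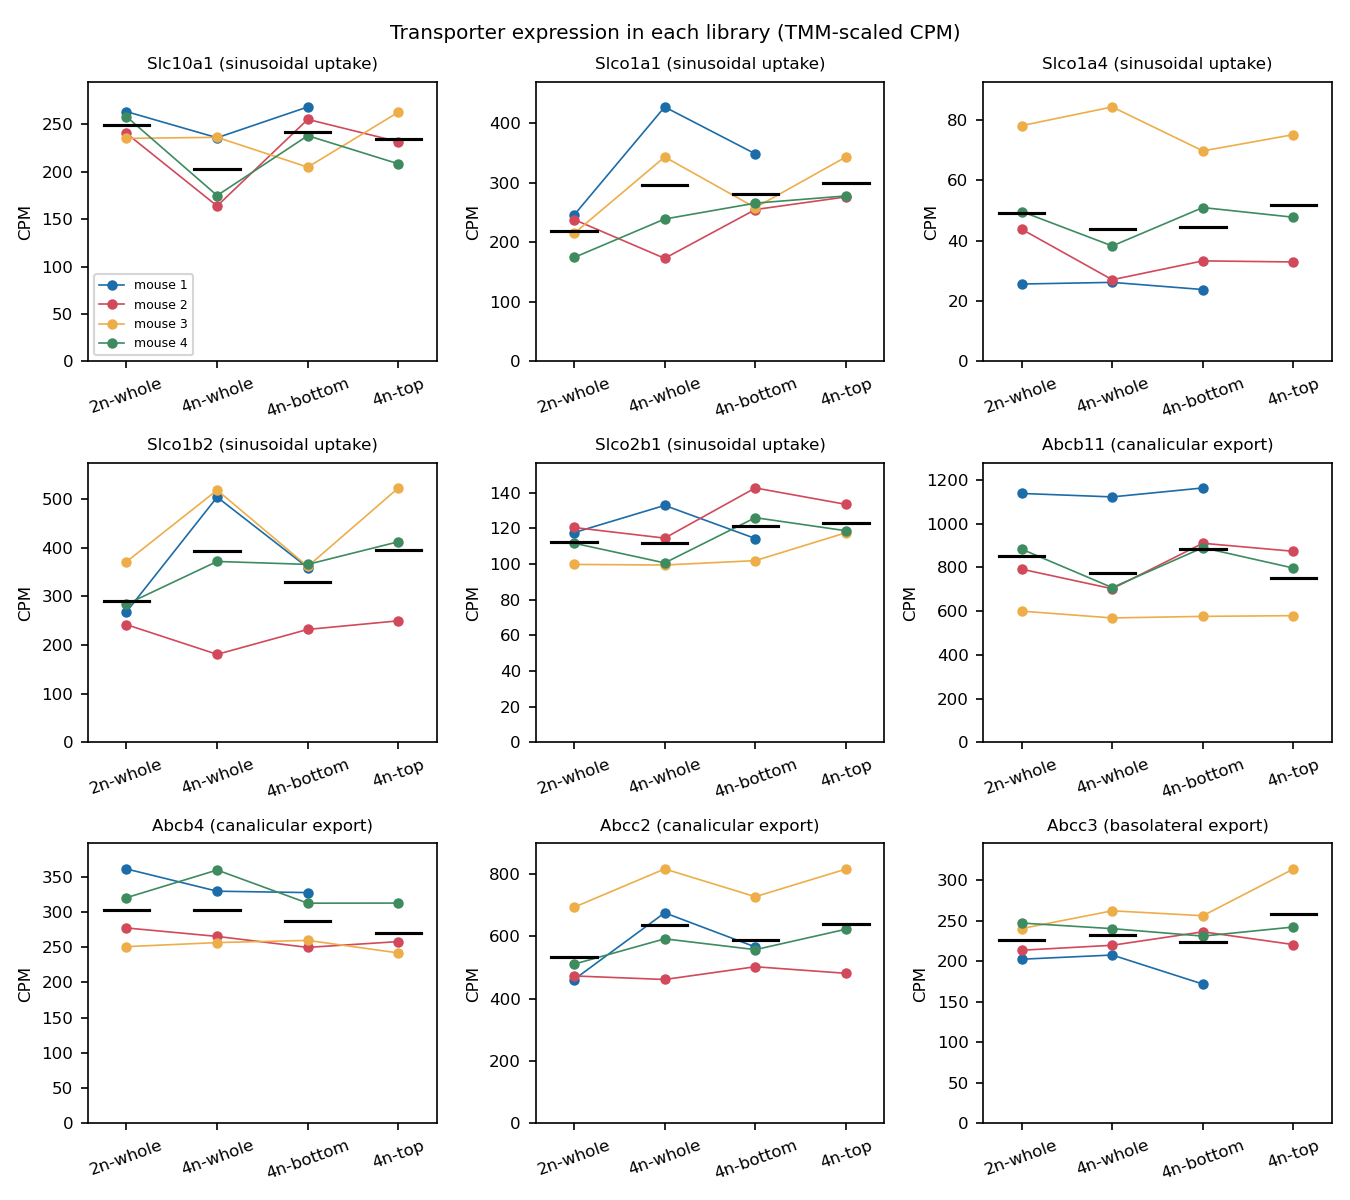
Expression of the 9 transporters in each library, in TMM-scaled CPM on a linear axis from 0, with populations along the horizontal axis, points and lines coloured by mouse and black bars for the population means (n = 4, and n = 3 for 4n-top). The order of the mice was largely kept across populations for Slco1a4 and Abcb11, and for Abcc2 mouse 3 was the highest throughout. Slco1a1 lay higher in 4n-bottom and 4n-top than in every 2n-whole library.

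Of the 9 transporters, 1 gene passed the thresholds used by the study (adjusted p-value under 0.05 and absolute log2 fold change above 0.5), and in 1 comparison: Slco1a1 was higher in 4n-top than in 2n-whole. Between 4n-whole and 2n-whole, 0 of the 9 were called by edgeR, where 3.47% of all 17488 genes tested were called. The count was 0 of 9 as well for 4n-top against 4n-bottom and for 4n-bottom against 2n-whole, against backgrounds of 0.0114% and 0.463%. DESeq2 with the mouse in the model called 0 of 9 in each of these 3 comparisons. Between 4n-top and 2n-whole the count was 1 of 9, against 0.961% of all genes and 0.440% called higher in 4n-top.

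At an unadjusted p-value under 0.05, 4 members stood out in 4n-whole against 2n-whole (background 20.4%), 0 in 4n-top against 4n-bottom (2.79%), 1 in 4n-bottom against 2n-whole (10.2%) and 3 in 4n-top against 2n-whole (11.3%). The median log2 fold change of the members was 0.00, 0.06, 0.05 and 0.11 in these comparisons, in the same order, and that of all genes tested was -0.01, 0.00, 0.00 and 0.00. The 95% interval of the difference lay within 0.5 log2 units of zero for 6, 8, 8 and 7 of the 9, which was the case for 27.3%, 35.0%, 33.9% and 29.0% of all genes. The shares over all genes were not matched to the 9 for expression level.

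**Figure D2:**
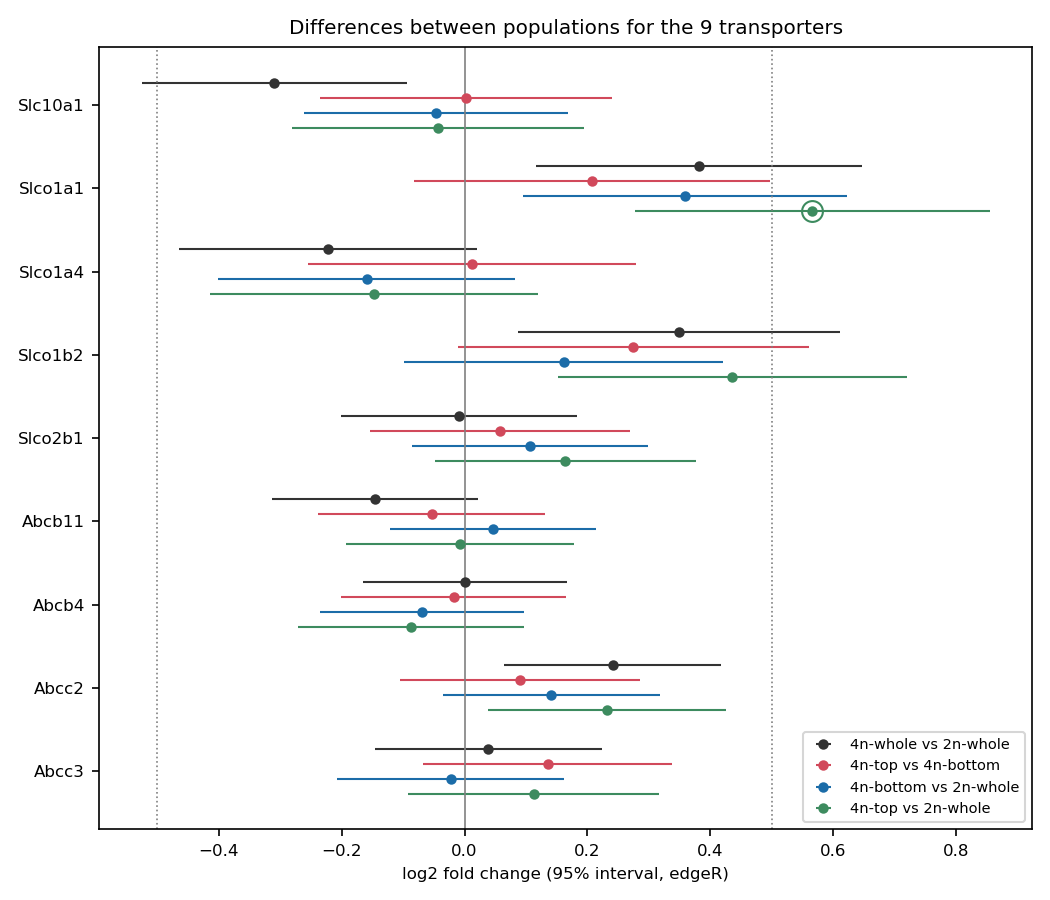
Log2 fold changes of the 9 transporters (points) with 95% intervals from edgeR (lines) in the 4 comparisons, on a log2 axis with dotted lines at the fold change threshold of 0.5. The circled point, Slco1a1 in 4n-top against 2n-whole at 0.57, is the single call.

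Slco1a1 encodes an OATP that carries bile acids, steroid conjugates and drugs into the hepatocyte. It was at 246, 238, 215 and 174 CPM in the 2n-whole libraries of mice 1 to 4. The 4n-top libraries of mice 2, 3 and 4 had 276, 343 and 278 CPM. Every 4n-top library was above every 2n-whole library, a separation that 4.82% of all genes showed in that direction. The log2 fold change was 0.57 (SE 0.14, 95% interval 0.28 to 0.85, 1.48-fold, adjusted p = 0.0425, Benjamini-Hochberg adjustment of edgeR's quasi-likelihood F test), and the level was higher in 3 of 3 mice.

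This call was close to the threshold. Without mouse 1, 3 or 4 the log2 fold change was 0.50, 0.53 and 0.52, with adjusted p-values of 0.0979, 0.108 and 0.315, while without mouse 2 it was 0.69 with an adjusted p-value of 9.59e-05. It was not called without the mouse in the model (0.45, adjusted p = 0.658) or by DESeq2 with the mouse in the model (0.54, adjusted p = 0.241). It was called by ComBat-seq followed by DESeq2, the tools named in the study's methods (0.55, adjusted p = 0.00501), with DESeq2 size factors in edgeR (0.54, adjusted p = 0.0492), without the filter on low counts (0.57, adjusted p = 7.21e-06) and with the compared populations alone (0.51, adjusted p = 0.0026). The sum of 14 pericentral genes (genes expressed near the central vein) was 1240, 4344 and 3872 CPM in the 4n-top libraries of mice 2, 3 and 4. Like Slco1a1, this sum was higher in every 4n-top library than in every 2n-whole library. Within 2n-whole the 2 went in opposite directions: the sum was 701, 809, 1131 and 1148 CPM in mice 1 to 4, and Slco1a1 fell from 246 to 174 CPM. The part of the pericentral genes in the difference was not tested. Of the 14, 9 were called higher in 4n-top than in 2n-whole, against 0.440% of all genes.

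In 4n-bottom, Slco1a1 was at 348, 255, 258 and 266 CPM in mice 1 to 4. These libraries too lay above every 2n-whole library, as for 1.69% of all genes, and the log2 fold change of 0.36 (SE 0.13, 95% interval 0.09 to 0.62) had an adjusted p-value of 0.309 (edgeR), so it was not called, although the level was higher in 4 of 4 mice. Between 4n-top and 4n-bottom the log2 fold change was 0.21 (SE 0.14, 95% interval -0.08 to 0.50, adjusted p = 1). The tetraploid fractions overlapped, with mouse 1 of 4n-bottom above all 4n-top libraries.

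The 4n-whole libraries spread widely for Slco1a1, at 427, 173, 343 and 239 CPM in mice 1 to 4. Mouse 2 had less in 4n-whole than in 2n-whole and the other 3 mice had more, and the groups overlapped. The log2 fold change was 0.38 (SE 0.13, 95% interval 0.12 to 0.65, adjusted p = 0.0807, edgeR). By ComBat-seq followed by DESeq2 it was 0.37 (adjusted p = 0.0367), and without the filter on low counts 0.39 (adjusted p = 0.00185). By DESeq2 with the mouse in the model it was 0.37 (adjusted p = 0.285). These values were under the fold threshold. Without the 4n-whole library of mouse 2, an alternative chosen after its values were seen, it was 0.58 with an adjusted p-value of 0.000538. Without all libraries of mouse 2 it was 0.64 with an adjusted p-value of 2.01e-05, while without mouse 1, 3 or 4 it was 0.23, 0.27 and 0.35, with adjusted p-values of 0.372, 0.244 and 0.311. The size of the difference thus depended on which mice were included.

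Slco1b2, the mouse liver OATP related to human OATP1B carriers of bilirubin, bile acids and statins, had a pattern close to that of Slco1a1. Its 2n-whole libraries had 268, 242, 371 and 284 CPM in mice 1 to 4, and its 4n-whole libraries had 504, 181, 518 and 372 CPM. As with Slco1a1, mouse 2 was lower in 4n-whole and the other 3 mice were higher. The log2 fold change was 0.35 (SE 0.13, adjusted p = 0.108, edgeR), and without the 4n-whole library of mouse 2 it was 0.53 with an adjusted p-value of 0.00305. By ComBat-seq followed by DESeq2 it was 0.32 (adjusted p = 0.0671), and without the filter on low counts 0.36 (adjusted p = 0.00425). Without all libraries of mouse 2 it was 0.59 (adjusted p = 0.000133), and without mouse 1, 3 or 4 it was 0.16, 0.30 and 0.33, with adjusted p-values of 0.546, 0.191 and 0.349.

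The 4n-bottom libraries had 359, 232, 361 and 366 CPM of Slco1b2, and the 4n-top libraries of mice 2, 3 and 4 had 249.7, 522 and 412 CPM. Neither group was separate from 2n-whole. The log2 fold change against 2n-whole was 0.16 (SE 0.13, adjusted p = 0.715) for 4n-bottom and 0.44 (SE 0.14, adjusted p = 0.158) for 4n-top. Without mouse 2, the latter was 0.57 with an adjusted p-value of 0.00202, and without mouse 1, 3 or 4 it was 0.34, 0.41 and 0.39, with adjusted p-values of 0.248, 0.347 and 0.711. Between 4n-top and 4n-bottom, Slco1b2 had the largest difference of the 9, 0.27 (SE 0.14, 95% interval -0.01 to 0.56, adjusted p = 1), and it was higher in 3 of 3 mice.

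In mouse 2, the pericentral genes summed to 1194 CPM in 4n-whole, against 3528, 3771 and 4020 CPM in mice 1, 3 and 4, and to 1192 CPM in 4n-bottom and 1240 CPM in 4n-top. Slco1b2 was lowest in mouse 2 in all 4 populations. The 5 uptake carriers together summed to 659 CPM in the 4n-whole library of mouse 2 and to 1325, 1281 and 924 CPM in those of mice 1, 3 and 4. In 2n-whole their sum ranged from 877 to 999 CPM. Depth, pericentral genes and the sum of the uptake carriers were thus low together in the 4n-whole library of mouse 2. What part each has in the others was not tested. Of the carriers, Slco2b1 was not low there, at 115 CPM against 133, 99.5 and 101 CPM in mice 1, 3 and 4. Slco1a4, at 27.1 CPM, was above mouse 1, at 26.2 CPM. The 4n-bottom and 4n-top libraries of mouse 2, with similar pericentral sums, had 40831810 and 41438193 counts. In bulk samples, fewer cells of a type and less RNA per cell cannot be told apart.

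The genes whose levels were most like Slco1a1, once the mouse effect had been removed, were sought among 7371 genes by the root mean square difference of centred log2 CPM over the 15 libraries. Slco1b2 was nearest (0.09, where the own spread of Slco1a1 about its mean was 0.28), followed by Dhrs7l (0.12) and Plpp3 (0.13). Reads could be shared between near copies in the Slco1a cluster: 1.62% of the 50-base stretches of Slco1a1 and 1.15% of those of Slco1a4 occur in other Slco1a genes, and 0% of those of Slco1b2 occur in another gene. Slco1a1 also overlaps Gm54500, annotated as misc_RNA, on its own strand, and how reads there were counted is not given. Slco1b2, Slco2b1, Abcb11 and Abcc3 overlap non-coding genes on the opposite strand.

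Slc10a1, the sodium-dependent taurocholate carrier (NTCP) that takes up conjugated bile acids, had a negative difference in 4n-whole. It was at 263, 240.3, 235 and 258 CPM in 2n-whole and at 236, 164, 236 and 175 CPM in 4n-whole, in mice 1 to 4. Mice 2 and 4 were well below all 2n-whole libraries, mice 1 and 3 were at their lower edge, and the level was lower in 3 of 4 mice. The log2 fold change was -0.31 (SE 0.11, 95% interval -0.53 to -0.09, adjusted p = 0.0803, edgeR), which is not a call, and without the 4n-whole library of mouse 2 it was -0.22 (adjusted p = 0.292). Without mouse 1, 2, 3 or 4 it was -0.36, -0.24, -0.42 and -0.23, with adjusted p-values of 0.0836, 0.303, 0.0113 and 0.468. It was -0.32 by DESeq2 with the mouse in the model (adjusted p = 0.0385) and -0.33 by ComBat-seq followed by DESeq2 (adjusted p = 0.0211). All these values were under the fold threshold.

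In 4n-bottom, Slc10a1 was at 268, 255, 205 and 238 CPM, and in 4n-top at 231, 263 and 208 CPM. Both ranges overlapped that of 2n-whole, with log2 fold changes of -0.05 (SE 0.10, 95% interval -0.26 to 0.17) and -0.04 (SE 0.12, 95% interval -0.28 to 0.19). Slc10a1 overlaps Srsf5 on the opposite strand. The library kit keeps strand, per the labels, but whether the counting used it is not given in the sources used here.

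Slco1a4, an OATP for bile acids and cardiac glycosides, differed widely between mice in every population. In mice 1 to 4 it was at 25.6, 43.8, 78.1 and 49.7 CPM in 2n-whole, at 26.2, 27.1, 84.3 and 38.2 CPM in 4n-whole, and at 23.8, 33.3, 69.7 and 51.0 CPM in 4n-bottom. The 4n-top libraries of mice 2, 3 and 4 had 32.9, 75.1 and 47.7 CPM. Mouse 3 was the highest in all 4 populations and mouse 1 the lowest in the 3 it was part of. Against 2n-whole, the log2 fold changes were -0.22 (SE 0.12, adjusted p = 0.301) in 4n-whole, -0.16 (SE 0.12, adjusted p = 0.689) in 4n-bottom and -0.15 (SE 0.13, adjusted p = 0.737) in 4n-top. Without the 4n-whole library of mouse 2, the value in 4n-whole was -0.12 (adjusted p = 0.7).

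Slco2b1, an OATP of broad tissue distribution that carries steroid sulphates, was the uptake carrier with the narrowest range. Its libraries lay between 99.8 and 121 CPM in 2n-whole, 99.5 and 133 CPM in 4n-whole, 102 and 143 CPM in 4n-bottom, while 4n-top held 118 to 134 CPM. The populations overlapped throughout. Its log2 fold changes ran from -0.01 (SE 0.09) in 4n-whole to 0.16 (SE 0.10) in 4n-top, both against 2n-whole, with adjusted p-values of 0.974 and 0.591.

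Abcb11, the bile salt export pump, had similar levels in all populations and wide differences between mice. In mice 1 to 4 it was at 1138, 792, 600.0 and 883 CPM in 2n-whole, 1122, 702, 569 and 708 CPM in 4n-whole, and 1163, 910.1, 576 and 890.0 CPM in 4n-bottom. In 4n-top it was at 873, 579 and 797 CPM in mice 2, 3 and 4. Mouse 1 was the highest wherever it was sampled and mouse 3 the lowest in all 4 populations. The level was lower in 4n-whole than in 2n-whole in 4 of 4 mice, by a log2 fold change of -0.15 (SE 0.08, 95% interval -0.31 to 0.02, adjusted p = 0.332, edgeR). ComBat-seq followed by DESeq2 gave -0.17 (adjusted p = 0.0459) and DESeq2 with the mouse in the model -0.16 (adjusted p = 0.186). These values were within the fold threshold. In 4n-bottom and 4n-top the log2 fold change by edgeR was 0.05 (SE 0.08) and -0.01 (SE 0.09) against 2n-whole.

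Abcb4, the phosphatidylcholine flippase whose loss leaves bile without phospholipid, ranged from 251 to 361 CPM in 2n-whole, 256 to 359 CPM in 4n-whole, 249.5 to 327 CPM in 4n-bottom and 242 to 312 CPM in 4n-top. Its log2 fold changes against 2n-whole were 0.00 (SE 0.08, 95% interval -0.16 to 0.17) in 4n-whole, -0.07 (SE 0.08) in 4n-bottom and -0.09 (SE 0.09) in 4n-top. The interval of each of its differences stayed within 0.5 log2 units of zero. Of its 50-base stretches, 1.91% occur in other genes, Abcb1b among them. It overlaps Crot on the opposite strand and the pseudogene Gm17936 on its own strand.

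Abcc2, the canalicular pump for glucuronide and glutathione conjugates (MRP2), was at 461, 473, 693 and 511 CPM in 2n-whole and at 675, 461, 816 and 592 CPM in 4n-whole, in mice 1 to 4. The 4n-bottom libraries had 566, 502, 727 and 557 CPM, and the 4n-top libraries of mice 2, 3 and 4 had 481, 815 and 622 CPM. Within each mouse the level was higher in 4n-bottom than in 2n-whole (4 of 4) and higher in 4n-top (3 of 3), but both groups overlapped 2n-whole. Mouse 3 was the highest in all 4 populations. The log2 fold changes against 2n-whole were 0.24 (SE 0.09, 95% interval 0.06 to 0.42, adjusted p = 0.0982, edgeR) in 4n-whole, 0.14 (SE 0.09, adjusted p = 0.609) in 4n-bottom and 0.23 (SE 0.09, adjusted p = 0.325) in 4n-top. None was called, and none of these intervals reached 0.5. In 4n-whole, ComBat-seq followed by DESeq2 gave 0.21 (adjusted p = 0.0141) and DESeq2 with the mouse in the model 0.23 (adjusted p = 0.0613). Without mouse 1, 2, 3 or 4, edgeR gave 0.14, 0.33, 0.24 and 0.24, with adjusted p-values of 0.414, 0.0489, 0.177 and 0.372. Without the 4n-whole library of mouse 2 alone, edgeR gave 0.30 (adjusted p = 0.0454). All these values were under the fold threshold.

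Abcc3, which exports conjugates across the basolateral membrane (MRP3), ranged from 203 to 247 CPM in 2n-whole, 208 to 262 CPM in 4n-whole, 172 to 256 CPM in 4n-bottom and 221 to 314 CPM in 4n-top. The groups overlapped. Its log2 fold changes against 2n-whole were 0.04 (SE 0.09), -0.02 (SE 0.09) and 0.11 (SE 0.10) in 4n-whole, 4n-bottom and 4n-top, with adjusted p-values of 0.869, 0.961 and 0.738.

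By role, the 3 canalicular pumps summed to 1690 ± 197 CPM in 2n-whole, 1714 ± 294 CPM in 4n-whole and 1760 ± 213 CPM in 4n-bottom (SD, n = 4 each), and to 1660 ± 63.0 CPM in 4n-top (SD, n = 3). The 5 uptake carriers summed to 920.2 ± 55.6, 1047 ± 315 and 1018 ± 82.5 CPM (SD, n = 4 each) and to 1103 ± 201 CPM (SD, n = 3), in the same order. Neither sum was tested.

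Differences among the 4 mice, tested in the same edgeR model after the plots by library had been seen, passed an adjusted p-value of 0.05 for 7 of the 9 transporters, where 19.2% of all genes passed. This background was not matched to the 9 for expression level and holds genes of much lower counts. The exceptions were Slc10a1 (adjusted p = 0.338) and Slco2b1 (adjusted p = 0.0969). Over the 12 libraries of 2n-whole, 4n-whole and 4n-bottom, the mean of the highest mouse exceeded that of the lowest by 3.06-fold for Slco1a4 (adjusted p = 7.75e-10), 1.96-fold for Abcb11 (adjusted p = 5.29e-08) and 1.90-fold for Slco1b2 (adjusted p = 2.89e-05). For the same genes, the highest population mean exceeded the lowest by 1.17-fold, 1.14-fold and 1.27-fold. The range between mice was the larger for 8 of the 9 and for 76.0% of all genes, so this count was near the background. The range between mice was taken over more means (4 against 3), each of fewer libraries (3 against 4), so the ranges are not on an equal footing. For Slc10a1 the range between populations was the larger, at 1.25-fold against 1.18-fold.

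The mice did not rank alike for all transporters. Mouse 3 was the highest in all 4 populations for Slco1a4 and Abcc2, and it was the lowest in all 4 for Abcb11 and Slco2b1. Abcc2 differed 1.55-fold between mouse means (adjusted p = 1.39e-05), Slco1a1 1.52-fold (adjusted p = 0.00752), Abcb4 1.33-fold (adjusted p = 0.000581) and Abcc3 1.31-fold (adjusted p = 0.0112). The mouse and the day or preparation of its liver cannot be told apart.

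**Figure D3:**
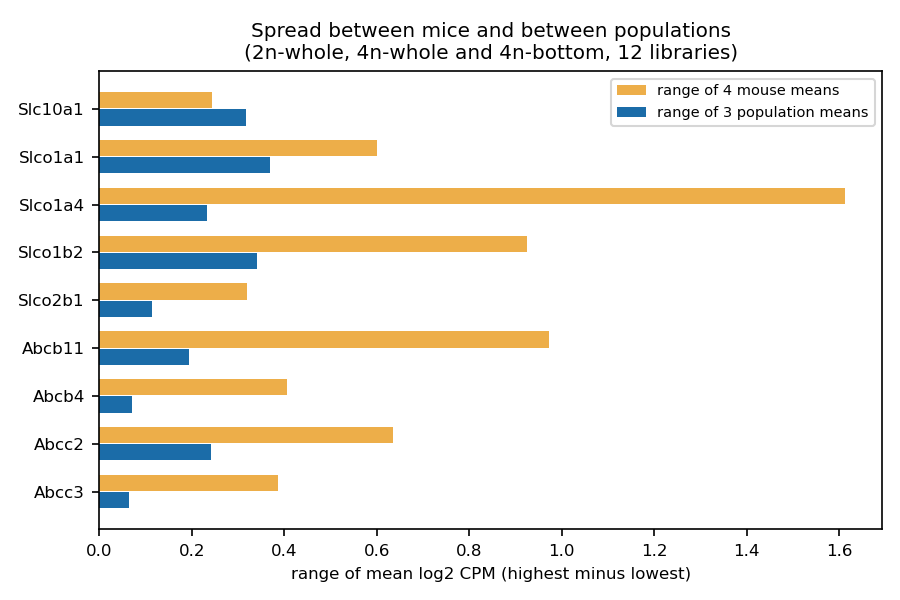
Range of mean log2 CPM between the 4 mice (orange bars) and between the 3 populations sampled in all 4 mice (blue bars) for each transporter, as highest minus lowest mean over 12 libraries, on an axis from 0. The orange bar is the longer for 8 of 9 genes, as for 76.0% of all genes, most so for Slco1a4, and the exception is Slc10a1.

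Other carriers, pumps and regulators of bile acid and drug transport were read from the same fit in lists chosen by role. As a background, edgeR called 3.47% of all genes tested in 4n-whole against 2n-whole. In 4n-whole against 2n-whole, the other SLC10 and OATP carriers had 6 tested of 13, with 0 called higher and 1 lower by edgeR, and a median log2 fold change of -0.40, where that of all genes tested was -0.01. The gene called was Slc10a2, the ileal-type bile acid carrier known from bile duct cells and ileum, which went from 17.8 ± 3.56 CPM in 2n-whole to 11.5 ± 1.55 CPM in 4n-whole (SD, n = 4 each, log2 fold change -0.61, SE 0.16, adjusted p = 0.0284). It was no longer called without mouse 2 (adjusted p = 0.199), without mouse 4 (adjusted p = 0.271) or without the 4n-whole library of mouse 2 alone (adjusted p = 0.132). It was also not called with the compared populations alone (adjusted p = 0.0871). The prostaglandin carrier Slco2a1 had a log2 fold change of -0.49 (SE 0.10, adjusted p = 0.00345, edgeR), just under the fold threshold. It was called by DESeq2 with the mouse in the model (-0.50, adjusted p = 6.2e-05) and by ComBat-seq followed by DESeq2 (-0.53, adjusted p = 3.55e-06), and each of these fits called 2 genes of the list, Slc10a2 and Slco2a1. Cholangiocyte markers summed to between 35.0 and 47.8 CPM in 2n-whole and between 16.6 and 31.2 CPM in 4n-whole, with Krt7 not passing the filter and 2 of the 5 tested, Sox9 and Spp1, called lower in 4n-whole, and their part in the lower Slc10a2 was not tested.

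Among the other organic ion carriers, the equilibrative nucleoside carrier Slc29a1 had a log2 fold change of 0.34 (SE 0.10, adjusted p = 0.0445), under the fold threshold.

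Of 13 other ABC exporters and flippases tested, 1 was called higher and 1 lower in 4n-whole (background 3.47%), with a median log2 fold change of -0.02. Abcc6, an efflux pump whose loss leads to ectopic mineralisation, was at 138 to 172 CPM in 2n-whole and 195 to 331 CPM in 4n-whole (range, n = 4 each, log2 fold change 0.66, SE 0.12, adjusted p = 0.00119), and without the 4n-whole library of mouse 2 the log2 fold change was 0.48, under the threshold. Abcb1a, a P-glycoprotein pump, was at 8.22 ± 5.96 CPM and 4.03 ± 1.24 CPM (SD, n = 4 each, log2 fold change -0.83, SE 0.23, adjusted p = 0.0336). This call was lost without mouse 2 (adjusted p = 0.133) or mouse 4 (adjusted p = 0.476) and without the 4n-whole library of mouse 2 alone (adjusted p = 0.082). It was also lost with the compared populations alone (adjusted p = 0.112), and the 2n-whole libraries alone ranged from 3.34 to 16.3 CPM. Abcg2, the pump best known for exporting Hoechst dye, was at 67.7 ± 8.05 and 57.9 ± 12.0 CPM (SD, n = 4 each, log2 fold change -0.23, SE 0.11, adjusted p = 0.244). Abcb1b, the other P-glycoprotein gene, was at 0.539 ± 0.417 and 0.587 ± 0.236 CPM (SD, n = 4 each).

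**Figure D4:**
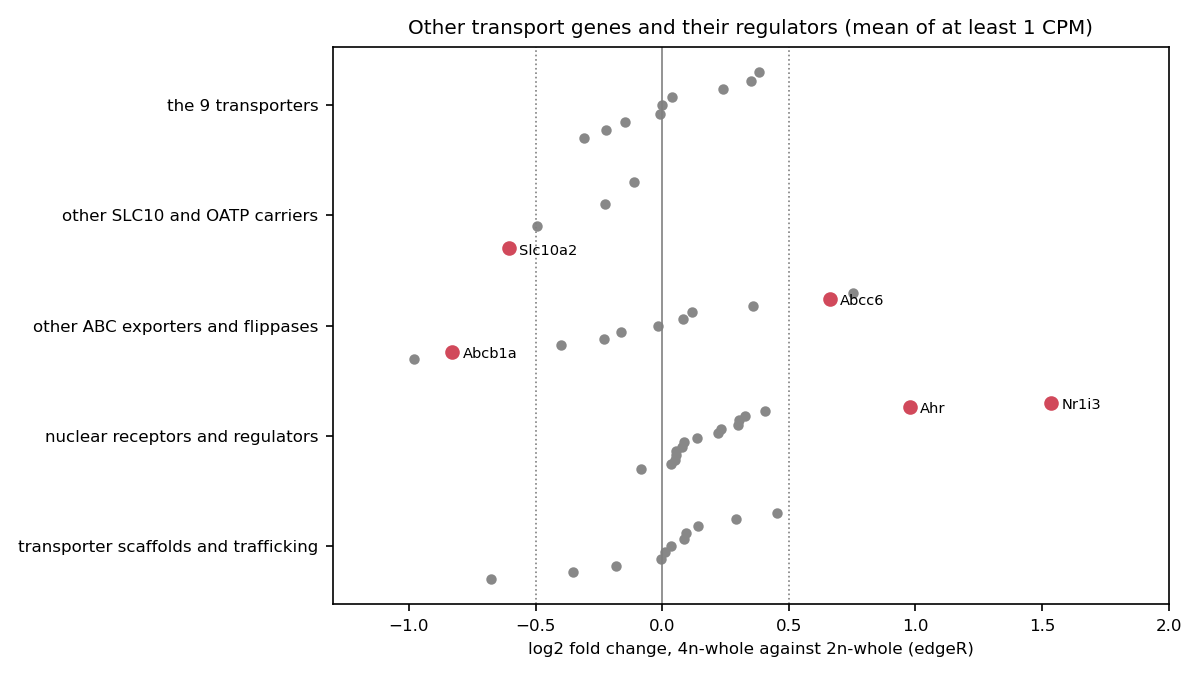
Log2 fold changes of 4n-whole against 2n-whole (edgeR) for the 9 transporters and for 4 lists of related genes, 1 point per gene with a mean of at least 1 CPM. Named red points passed both thresholds, grey points did not, and dotted lines mark the fold threshold of 0.5.

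Of the 16 nuclear receptors and other regulators tested, 2 were called higher in 4n-whole than in 2n-whole and 0 lower (background 3.47%). Their median log2 fold change was 0.18, with 15 above zero. An unadjusted p-value under 0.05 (edgeR) was found for 7 of them (background 20.4%). Nr1i3 (CAR), the xenobiotic receptor known to act on drug-handling genes, had 9.05 ± 6.42 CPM in 2n-whole and 23.8 ± 12.6 CPM in 4n-whole (SD, n = 4 each, log2 fold change 1.53, SE 0.16, adjusted p = 6.72e-07). Ahr, the receptor for dioxin-like compounds, had 14.3 ± 6.18 and 27.3 ± 8.29 CPM (SD, n = 4 each, log2 fold change 0.98, SE 0.16, adjusted p = 3e-04). Both were also higher in 4n-top than in 2n-whole, with log2 fold changes of 1.16 (SE 0.18, adjusted p = 0.000158) and 0.82 (SE 0.17, adjusted p = 0.00874), and Nr1i3 was higher in 4n-bottom, with 0.88 (SE 0.16, adjusted p = 0.00519). Without mouse 3, Ahr was not called in 4n-top against 2n-whole (adjusted p = 0.146).

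The regulators most often linked to bile acid transporters did not pass. The bile acid receptor Nr1h4 (FXR) had a log2 fold change of 0.05 (SE 0.09, 95% interval -0.13 to 0.23, adjusted p = 0.82) in 4n-whole against 2n-whole. Hnf4a, a master factor of hepatocyte genes, had 0.08 (SE 0.08, adjusted p = 0.662), and Rxra, the partner of Nr1h4, had 0.23 (SE 0.08, adjusted p = 0.0964). Of the 11 scaffold and trafficking genes tested, such as Rdx (radixin, which anchors canalicular pumps to actin), 0 were called by edgeR or DESeq2 in any of the 4 comparisons. Against 2n-whole, 1 had an unadjusted p-value under 0.05 (edgeR) in 4n-whole (background 20.4%) and 1 in 4n-top (11.3%). Between 4n-top and 4n-bottom, edgeR and DESeq2 called 0 genes of these 5 lists. An unadjusted p-value under 0.05 (edgeR) was found there for 1 organic ion carrier and 1 regulator, and for 2.79% of all genes.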

How the data were processed

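RNA-seq libraries were made from sorted hepatocytes of 4 mice, 15 libraries in all. The authors deposited raw counts of reads per gene symbol, without normalization. The submitters' processing notes name STAR 2.7.11a, featureCounts of Subread and GRCm39, while the gene annotation, how strand was set and how mate pairs or reads with several alignments were counted are not given in the sources used here.

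Counts were analysed with edgeR 4.0.16 in R 4.3.3. Genes were filtered at the defaults of edgeR (minimum count 10, minimum total 15), which left 17488 of 55984, and scaled by TMM. A quasi-likelihood model of all 15 libraries held the population and, as a replicate block, the mouse. Benjamini-Hochberg adjustment ran over all genes tested, and DEGs had to pass 0.05 in adjusted p-value and 0.5 in absolute log2 fold change. Log2 CPM values used a prior count of 2, and limma 3.58.1 removed the mouse effect before genes of similar pattern were sought. A gene with 3 counts has a CPM between 0.0713 and 0.136 at these depths, a limit for counting error only.

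Subject numbers mark mice, and after population means were removed, libraries of the same mouse correlated across genes at a mean of 0.158 over 21 pairs (lowest 0.0845, highest 0.227). RPKM used the merged exons of all transcripts of a gene in GENCODE M39. Named were all 9 members, every called gene of the role lists, otherwise up to 3 of the highest mean CPM of each list, and the 3 genes most like a called member. Abcg2 and Abcb1b were added as pumps that can export the dye. The members and lists were chosen with earlier results of these data known. Of 12 scaffold genes listed, 11 were found under their symbol. Some listed genes are not reported here.

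Alternatives were no replicate block, DESeq2 1.42.0 with the block, ComBat-seq (sva 3.50.0) and then DESeq2, as in the study's methods, DESeq2 size factors in edgeR, no filter, fits of the compared populations alone, adjusted p-value without a fold limit, and leaving out each mouse. Leaving out the 4n-whole library of mouse 2 and the test of mouse differences were added after the data were seen. The scripts were tested on simulated data.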

Additional observations from a re-analysis of the deposited data

Results flagged for a closer look

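In 4n-bottom, the Slco1a1 level of mouse 1 was 348 CPM, far from the other 3 libraries, which lay between 255 and 266 CPM. In the same population, the Slco1b2 level of mouse 2 was 232 CPM, far below the other 3, which lay between 359 and 366 CPM. They were marked because the gap to the nearest library was 0.885 and 0.951 of the range of the group, above Dixon's 95% critical value for 4 libraries. Among the 27 groups of 4 libraries examined (9 transporters in 3 populations), 2 were marked, and chance marks about 1 in 20.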

How the results depend on the processing

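Among 396 alternative values of the 9 members' log2 fold changes, 386 kept their side of the thresholds, 5 gained a call and 5 lost one. The sign changed in 26, all of them uncalled in both fits. For 4n-top against 2n-whole, where 1 member was called, 0 were called without the replicate block and 0 by DESeq2 with the block, 1 was called by ComBat-seq followed by DESeq2, with DESeq2 size factors, without the filter and with the compared populations only, and with each mouse left out the count ranged from 0 to 2. Libraries of the same number come from the same mouse, so the fit without the block ignores the pairing. For 4n-whole against 2n-whole, where 0 were called, the count was 2 without the 4n-whole library of mouse 2 and ranged from 0 to 2 with each mouse left out, 2 being the count without mouse 2. The comparisons of 4n-top with 4n-bottom and of 4n-bottom with 2n-whole stayed at 0 in every setting. Without the replicate block, Abcc6, Slc10a2, Abcb1a, Nr1i3 and Ahr lost their calls in 4n-whole against 2n-whole as well. Over all genes, the calls in 4n-whole against 2n-whole, 4n-top against 4n-bottom, 4n-bottom against 2n-whole and 4n-top against 2n-whole were 607, 2, 81 and 168, and without the block 40, 0, 0 and 2. They were 814, 49, 143 and 329 by DESeq2 with the block, 1160, 18, 275 and 538 by ComBat-seq followed by DESeq2, 709, 25, 145 and 261 without the filter, 305, 15, 92 and 300 with the compared populations only, and 957, 2, 86 and 185 without the fold limit. With each mouse left out they ranged from 244 to 1025, 0 to 29, 49 to 111 and 98 to 238, and without the 4n-whole library of mouse 2 they were 338, 5, 120 and 230. The cause of these shifts was not tested. All 9 transporters were far above the count limit, so depth did not limit their detection, while 4n-top had 3 mice.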
